A study of Mus musculus with 3 samples.

Results

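Lonidamine is a small molecule that acts on the use of glucose and pyruvate, and 8 genes that encode its known protein targets are described here across the cells of the mouse nose. They are the hexokinases Hk1, Hk2 and Hk3, the monocarboxylate transporters Slc16a1, Slc16a3 and Slc16a7, and the mitochondrial pyruvate carrier subunits Mpc1 and Mpc2. All 8 were found by symbol among the 55357 genes of each of the 3 libraries. They were chosen as drug targets, not for their values, though earlier results of these data were known.

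The series measured single-cell RNA in nasal mucosa of C57BL/6 mice, labelled C57BL/6J, in a papain model of eosinophilic sinusitis. The lonidamine group received 20 µg papain in the nose and lonidamine at 10 mg/kg by the intragastric route. The papain group received 20 µg papain in the nose and PBS by the intragastric route, and the PBS group received PBS in the nose. Papain is a plant cysteine protease that provokes allergic airway inflammation. Each group held males and females in equal number, the mucosa of all its mice was pooled, and each group is thus 1 library; the sources used here do not give the number of mice. Because a group is a single library, differences between groups carry no test, and every interval below, in square brackets, is a 95% interval of counting error only. The library of the papain group carries the name Fibroblast in one label while its title and treatment mark it as papain; fibroblast-gated cells were 4.58% of 11887 cells in the lonidamine library, 3.74% of 10524 in papain and 1.33% of 9378 in PBS.

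Hexokinases phosphorylate glucose on its entry into the cell. Hk1 is the isoform most tissues use for basal glucose breakdown, Hk2 is inducible and binds the outer mitochondrial membrane, and Hk3 is known from myeloid blood cells. The SLC16 carriers move lactate, pyruvate and ketone bodies together with protons across the plasma membrane: Slc16a1 encodes MCT1, Slc16a3 encodes MCT4, the lactate exporter of strongly glycolytic cells, and Slc16a7 encodes MCT2, a carrier of high pyruvate affinity. Mpc1 and Mpc2 form the heterodimer that takes pyruvate into the mitochondrial matrix. Lonidamine is known to inhibit hexokinase, the monocarboxylate transporters, the pyruvate carrier and respiratory complex II.

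Cells were placed in classes one by one from marker genes, so each class is a gate and is called by the markers' cell type. After filtering, 11887, 10524 and 9378 cells remained in the lonidamine, papain and PBS libraries, with a median of 5823, 6547 and 7352.5 unique molecular identifiers (UMIs, each 1 captured RNA molecule). The libraries shared few barcodes, 36 between lonidamine and papain, 22 between lonidamine and PBS and 38 between papain and PBS. Ribosomal RNA genes took 3.52%, 3.66% and 0.878% of UMIs, mitochondrial genes a median of 3.42%, 3.80% and 2.38% per cell, and the female share of cells whose sex could be read was 83.1%, 73.2% and 56.8%. These values move with every comparison against PBS below. The female share also differed between the lonidamine and papain libraries. It was 90.7% and 67.8% in the basal epithelial gate and, in the other direction, 66.0% and 81.7% in mature olfactory neurons. The part of these values in the results was not tested. Of all 31789 cells, 27378 (86.1%) carried at least 1 UMI of the 8 genes, and 4926 cells passed no gate.

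The promoters of 3 genes are printed because they belong to the genes on which the comparisons turn: Hk3 and Slc16a3, whose molecules were concentrated in myeloid gates, and Hk2, the gene with the largest difference between papain and PBS over all cells. Each runs 5′ to 3′ on the gene's strand, from 250 bases before to 50 after the RefSeq start, in build GRCm38.p6, an older build than the one named for the counts. Capitals mark ACGTG, a form of the core of the hypoxia response element, or GAGGAA, the core bound by the myeloid factor PU.1. Both were read on either strand (as CACGT or TTCCTC).
Hk3, chr13:55021336-55021635, minus strand: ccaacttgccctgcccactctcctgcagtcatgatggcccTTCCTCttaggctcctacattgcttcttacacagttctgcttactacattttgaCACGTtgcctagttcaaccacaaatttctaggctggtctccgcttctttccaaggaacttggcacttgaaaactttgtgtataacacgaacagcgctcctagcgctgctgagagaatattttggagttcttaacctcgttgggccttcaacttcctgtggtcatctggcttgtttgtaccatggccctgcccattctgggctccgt
Slc16a3, chr11:120948817-120949116, plus strand: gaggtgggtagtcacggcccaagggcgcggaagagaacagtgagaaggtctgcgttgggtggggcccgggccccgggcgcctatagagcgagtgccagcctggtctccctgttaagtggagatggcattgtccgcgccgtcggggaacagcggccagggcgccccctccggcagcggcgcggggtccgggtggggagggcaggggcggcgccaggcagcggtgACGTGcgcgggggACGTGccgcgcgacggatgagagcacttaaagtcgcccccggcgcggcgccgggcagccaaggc
Hk2, chr6:82774405-82774704, minus strand: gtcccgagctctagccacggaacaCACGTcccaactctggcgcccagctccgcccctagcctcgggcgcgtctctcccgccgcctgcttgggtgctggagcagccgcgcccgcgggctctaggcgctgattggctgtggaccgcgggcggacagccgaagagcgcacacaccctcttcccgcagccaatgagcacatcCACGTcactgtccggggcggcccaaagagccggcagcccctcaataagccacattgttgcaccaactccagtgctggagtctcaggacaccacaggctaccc
The Slc16a3 and Hk2 windows each held 2 copies of ACGTG, and the Hk3 window held 1 copy of ACGTG and 1 of GAGGAA. Slc16a1 held 3 matches of ACGTG, 2 of them the opposite strands of 1 CACGTG. Mpc1 and Mpc2 held none, and Hk1 none at one of its starts and 2 at the other. GCGTG, the other form of that core, lay in the Slc16a1 and Mpc2 windows and at 1 start each of Hk1 and Mpc1. It was absent from the printed windows. Of 32851 mouse promoters of the same length, 19.6% held ACGTG, 43.8% held ACGTG or GCGTG and 28.3% held GAGGAA. These letters are thus common and the match is a description only. Promoter entries were matched for 7 of the 8 genes, all but Slc16a7.

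The 8 genes fell into different cells. Hk1, Mpc1 and Mpc2 were read in every class. Hk2 was carried by epithelial, sustentacular, stromal and myeloid gates and was nearly absent from olfactory neurons. Hk3 and Slc16a3 were concentrated in myeloid gates, Slc16a7 in basal epithelium, and Slc16a1 had its highest levels in small erythroid, glial and lymphoid gates while most of its molecules lay elsewhere. Levels below are in CPM, a gene's UMIs per 1000000 UMIs of the class in that library, and levels of different genes are not compared with each other.

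**Figure D1:**
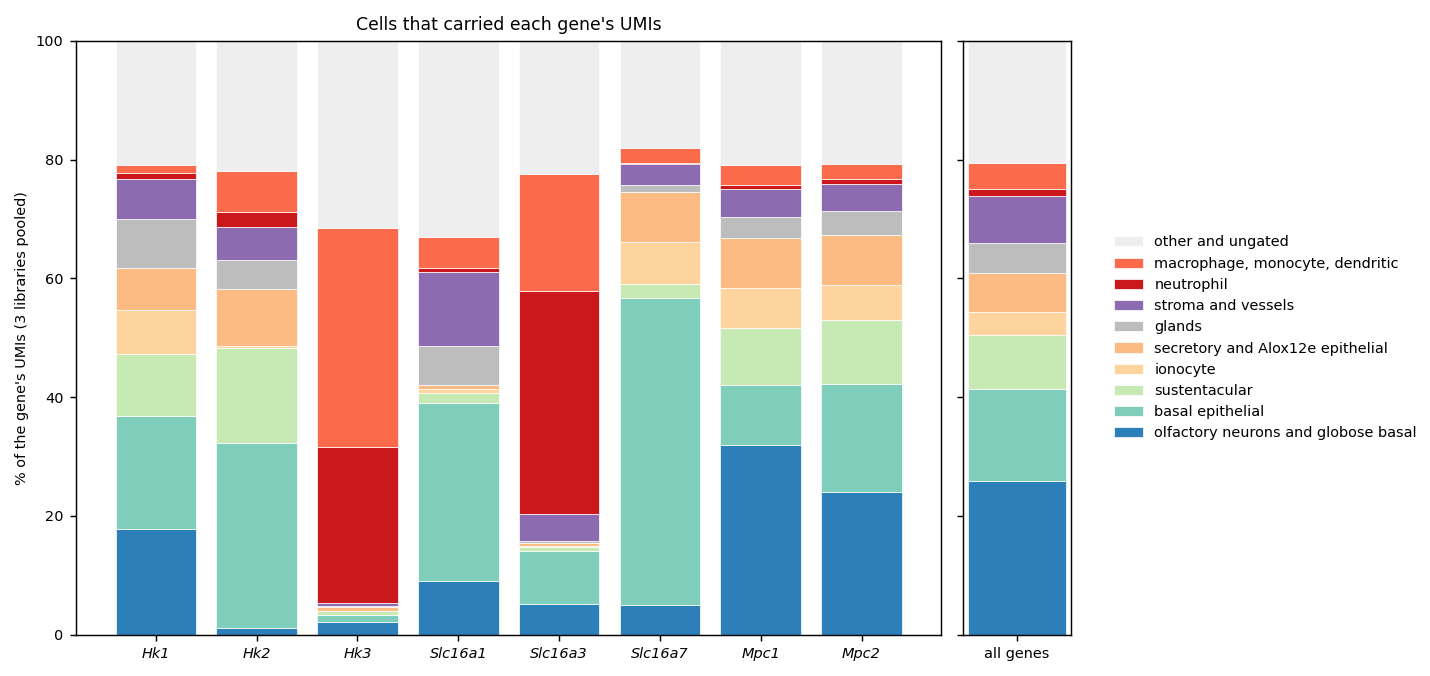
Share of each gene's UMIs, in percent of its pooled total over the 3 libraries, by group of gated classes; the last bar gives the same for all genes together. The neutrophil gate holds 37.6% of Slc16a3 UMIs and 26.3% of Hk3 UMIs against 1.17% of all UMIs, and the olfactory neuron gates together with the globose basal and nascent neuron gate hold 1.17% of Hk2 UMIs against 25.9% of all UMIs.

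Hk1 was the evenly spread hexokinase. Over all cells it stood at 67.6, 67.6 and 58.3 CPM in the lonidamine, papain and PBS libraries, from 5747, 5608 and 4661 UMIs. The class with the highest level was the Scgb1b27 Scgb2b27 Car6 gland gate, with 827 CPM pooled and 6.75% of all Hk1 UMIs from 0.527% of all UMIs. That gate had 50 cells or more in the PBS library alone, where Hk1 stood at 823 CPM. Of the classes with 50 cells or more in every library, the ionocyte or Ascl3 microvillous gate was highest, with 104, 113 and 134 CPM. The lowest was the globose basal and nascent neuron gate, with 13, 13.8 and 12.4 CPM, next to macrophages with 18, 20.9 and 14.8 CPM. The order at both ends was thus the same in each library.

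Within the sustentacular gate Hk1 was at 81.0, 78.0 and 52.6 CPM in the lonidamine, papain and PBS libraries, a log2 ratio of 0.57 for papain over PBS. Sustentacular cells, which surround and support olfactory neurons, fell mostly into a cluster led by Muc2 and Gldn and one led by Slc22a20 and Chil6. Hk1 stood at 97.9, 98.1 and 85.2 CPM in the Muc2, Gldn cluster and at 19.2, 15 and 26.6 CPM in the other. The first cluster held 74.9%, 73.2% and 43.2% of the gate's cells, so the cluster make-up of this gate differed between the PBS library and the others. Clusters were made without batch correction. Here and below, different cells and a shift of the same cells therefore cannot be told apart. Among the genes whose levels followed Hk1 most closely over 67 class-by-library sums from 27 classes were Aldoa (Pearson r 0.71) and Pmm1, of 13244 genes compared; the points share libraries and scaling.

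Hk2 was the hexokinase whose total differed most against PBS. It stood at 86.0, 97.1 and 46.1 CPM over all cells in the lonidamine, papain and PBS libraries, from 7310, 8053 and 3686 UMIs. The papain value was 2.11-fold the PBS value (log2 ratio 1.08 [1.02, 1.13]). The lonidamine value was close below that of papain (-0.18 [-0.22, -0.13]) and above that of PBS (0.90 [0.84, 0.96]). By sex, lonidamine over PBS was 1.19 in female cells and 0.06 [-0.07, 0.19] in male cells. Papain over PBS was 1.32 in female and 0.62 in male cells, and lonidamine over papain -0.13 and -0.56. The difference between the sexes was not tested. A value was called when it was at least 2-fold with an interval that excluded no change and at least 20 UMIs in both libraries together. By that rule 9.83% of genes over all cells were higher in papain than in PBS and 5.62% lower, so Hk2 is 1 of many such genes.

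Part of the Hk2 difference over all cells went with the cells captured. With each class held at its mean share of the 3 libraries, Hk2 stood at 76.3, 89.4 and 58.1 CPM in the lonidamine, papain and PBS libraries, and papain over PBS was 0.62 in place of 1.08. The mature olfactory neuron gate, which carried hardly any Hk2, held 1400, 1299 and 2755 cells. Among classes measured in both libraries Hk2 was above 0 for papain over PBS in 14 of 15, with an interval above 0 in 9 and a median of 0.50, and in 14 of 15 under each of the 3 other scalings tried.

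By level, the class with most Hk2 differed between libraries. Of classes with 50 cells or more, macrophages (174 CPM), basal epithelial (166) and conventional dendritic cells (164) led in the lonidamine library. Neutrophils (189), sustentacular cells (177) and secretory epithelium (171) led in papain, and neutrophils (151) in PBS. Basal epithelial cells held the most molecules, 31.1% of all Hk2 UMIs, and stood at 166, 164 and 124 CPM in the lonidamine, papain and PBS libraries. By sex, papain over PBS in that gate was 0.53 [0.38, 0.67] in female and 0.02 [-0.16, 0.21] in male cells. Lonidamine over PBS there was 0.53 [0.39, 0.68] in female and -0.10 [-0.37, 0.16] in male cells, and the difference between the sexes was not tested. Macrophages stood at 174, 143 and 105 CPM, the lonidamine library highest and PBS lowest. At the low end were immature olfactory neurons with 2.20, 3.66 and 1.79 CPM and mature olfactory neurons with 3.86, 4.46 and 1.71 CPM. Together with the globose basal and nascent neuron gate they held 1.17% of Hk2 UMIs and 25.9% of all UMIs.

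A UMI of Hk2 was seen in 56.5%, 58.0% and 52.3% of basal epithelial cells in the lonidamine, papain and PBS libraries. With each cell thinned to 1000 UMIs the shares were 15.1%, 14.2% and 11%. Mature olfactory neurons, as a class with hardly any Hk2, gave 1.57%, 1.62% and 0.944% unthinned and 0.220%, 0.315% and 0.262% thinned. The median cell held 7402, 8174 and 9501 UMIs in the basal gate and 6568, 7050 and 7422 in the neuron gate. The basal shares lay far above that background in each library, and the neuron values are read as background. The called Hk2 ratios in mature olfactory neurons (papain over PBS 1.38, lonidamine over PBS 1.18) rest on 36, 45 and 35 UMIs at that background.

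**Figure D2:**
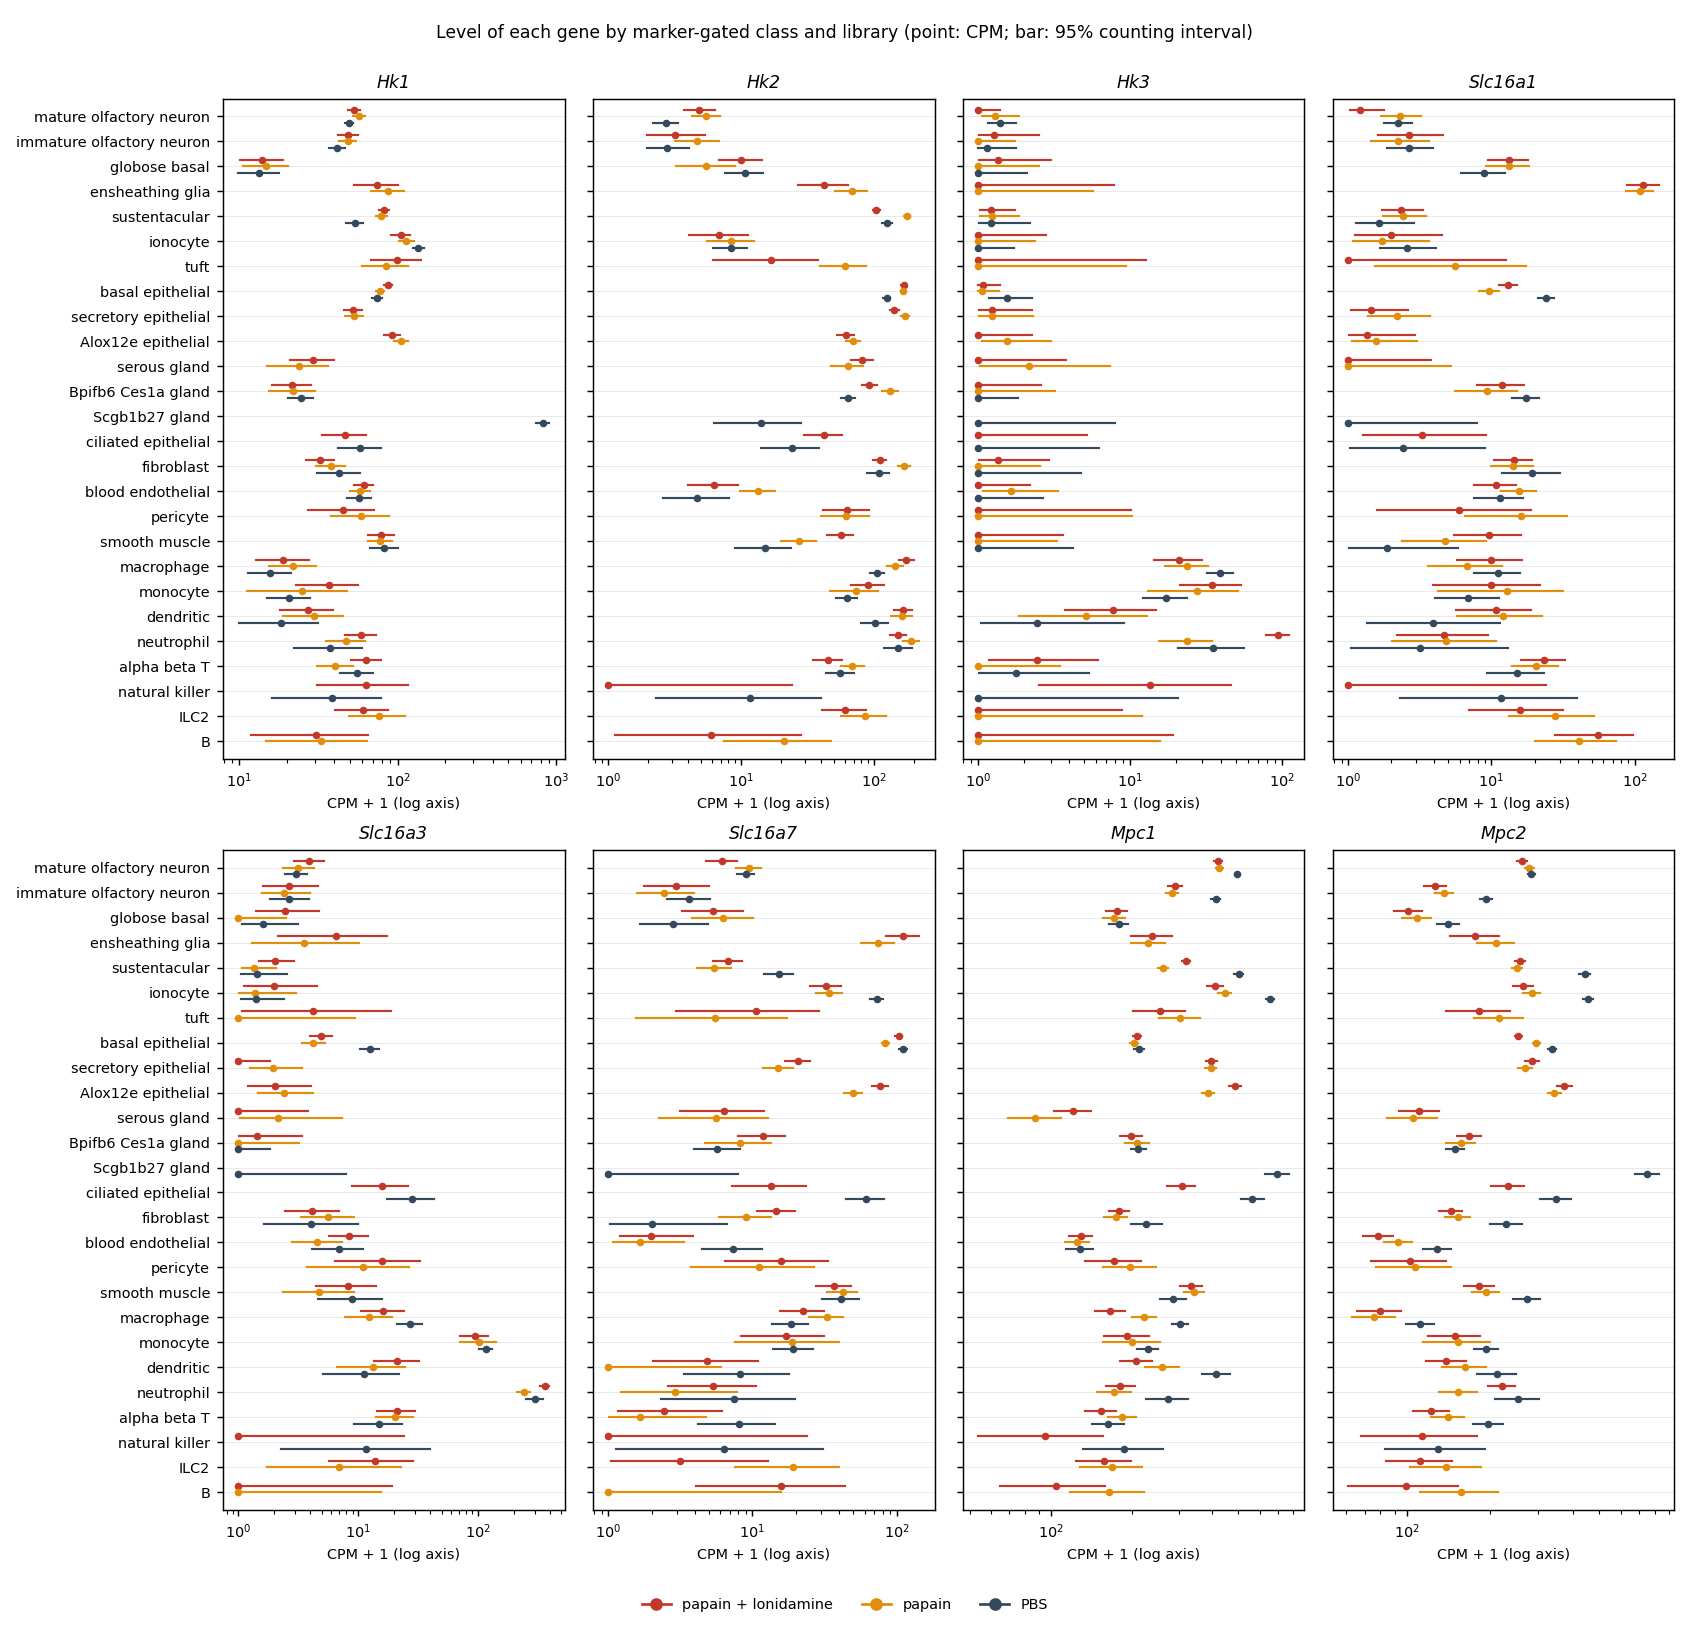
Level of each of the 8 genes (CPM plus 1, log axis) in each gated class with at least 50 cells, with 1 point per library (lonidamine, papain, PBS) and bars for 95% counting intervals. Hk2 is lowest in olfactory neurons and Hk3 and Slc16a3 peak in the neutrophil, monocyte and macrophage gates, while Mpc1 and Mpc2 are read in every class shown, down to 74.9 CPM for Mpc2 in macrophages of the papain library.

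The lonidamine library had less Hk2 than the papain library in most classes. The ratio was below 0 in 14 of 22 classes, with an interval below 0 in 8 and above 0 in 2 and a median of -0.29; under TMM and median-of-ratios scaling it was below 0 in 16 of 22. Sustentacular cells had 103 CPM in the lonidamine library, 177 in papain and 124 in PBS, so that the papain library stood above both others. Lonidamine over papain was -0.78 [-0.90, -0.67] and papain over PBS 0.50 [0.37, 0.65] there. Fibroblasts also had their highest value in papain, with 109, 167 and 107 CPM in the lonidamine, papain and PBS libraries. Their ratios were -0.61 [-0.83, -0.40] for lonidamine over papain and 0.03 [-0.29, 0.36] for lonidamine over PBS.

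The sustentacular gate was split by its 2 largest clusters after the values were seen. In the Slc22a20, Chil6 cluster (156, 125 and 142 cells) Hk2 stood at 141, 340 and 152 CPM in the lonidamine, papain and PBS libraries. Lonidamine over papain was -1.27 [-1.48, -1.06], papain over PBS 1.16 [0.97, 1.35] and lonidamine over PBS -0.11 [-0.34, 0.12]. In the Muc2, Gldn cluster (615, 480 and 137 cells) it stood at 88.2, 130 and 92.8 CPM, with -0.56, 0.48 and -0.08 for the same ratios. The papain library was highest in both clusters, and the lonidamine and PBS values lay within counting error of each other. A small cluster led by Bpifa1 and Bpifb1 (25, 36 and 25 cells) differed, with 202, 199 and 86.2 CPM: lonidamine over papain was 0.02 [-0.47, 0.51] and lonidamine over PBS 1.22 [0.66, 1.81]. The order was not shared by both sexes: papain over PBS over the whole gate was 1.01 in female cells and -0.40 in male cells, and lonidamine over papain was -0.90 in female and -0.51 in male cells. The female share of these cells was 67.9%, 70.4% and 45.2%, and its part in the result was not tested.

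Small classes gave the other called Hk2 ratios. Smooth muscle cells had 55.2, 26.3 and 14 CPM in the lonidamine, papain and PBS libraries, from 77, 42 and 16 UMIs, which made lonidamine over papain 1.06 [0.51, 1.65] and lonidamine over PBS 1.94 [1.19, 2.86]. Endothelial cells had 16, 38 and 8 UMIs, and tuft or Trpm5 microvillous cells had 5 in the lonidamine library and 26 in papain. Lonidamine over papain was -1.22 [-2.19, -0.37] in endothelial and -1.78 [-3.63, -0.49] in tuft cells, the opposite direction from smooth muscle, and papain over PBS was 1.70 [0.65, 3.08] in endothelial cells. The Bpifb6 Ces1a gland gate had 131 CPM in papain and 62.9 in PBS (1.06 [0.80, 1.32]), and the globose basal gate 4.47 in papain and 9.67 in PBS (-1.07 [-2.25, -0.09]) from 11 and 32 UMIs. The genes nearest to Hk2 in pattern were Ifrd1 (r 0.71), Gadd45b and Niban1.

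Hk3 was carried by myeloid cells. It had 318, 113 and 208 UMIs over all cells in the lonidamine, papain and PBS libraries, or 3.74, 1.36 and 2.60 CPM. The lonidamine library was highest and the papain library lowest, and lonidamine over papain was 1.45 [1.14, 1.78], a 2.74-fold difference. Over all cells 2.71% of genes were called higher in the lonidamine than in the papain library and 1.88% lower, and Hk3 was the 1 gene of the 8 called in that comparison. Papain over PBS was -0.93 [-1.28, -0.60], short of 2-fold.

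The neutrophil gate held 26.3% of Hk3 UMIs, the macrophage gate 25.7% and the macrophage, monocyte and dendritic gates together 36.9%. No cell passed the eosinophil gate. The main cluster of the neutrophil gate was led by Cxcr2 and Siglecf, and Siglecf was also a listed eosinophil marker. In the lonidamine, papain and PBS neutrophil gates the 6 eosinophil markers summed to 222, 352 and 362 CPM. The 7 neutrophil markers summed to 120701, 49406 and 76751 CPM there. In neutrophils Hk3 stood at 93.3, 22.7 and 34.5 CPM in the lonidamine, papain and PBS libraries, from 128, 24 and 16 UMIs in 755, 632 and 209 cells. The lonidamine library was thus apart from both others: lonidamine over papain was 2.01 [1.40, 2.73] and lonidamine over PBS 1.40 [0.68, 2.29]. Macrophages had another order, with 20.1, 22.9 and 38.5 CPM, PBS highest; lonidamine over PBS was -0.92 [-1.59, -0.33] and lonidamine over papain -0.18 [-0.94, 0.56]. Monocytes had 33.9, 26.8 and 16.3 CPM from 19, 9 and 33 UMIs, with lonidamine over PBS at 1.08 [0.17, 1.92].

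Neutrophil precursors moved with the Hk3 values. A cluster led by Camp, Ngp and Wfdc21, granule genes made at the precursor stage, held 237 cells of the lonidamine library and 9 in each of papain and PBS. It carried 190 of 318 Hk3 UMIs in the lonidamine library (59.7% [54.1, 65.2]), 14 of 113 in papain (12.4% [6.94, 19.9]) and 9 of 208 in PBS (4.33% [2, 8.05]). Without that cluster Hk3 over all cells stood at 1.53, 1.19 and 2.49 CPM, and lonidamine over papain was 0.35 [-0.03, 0.75] in place of 1.45. Lonidamine over PBS, at 0.52 [0.27, 0.78] with the cluster, turned to -0.70 without it. Over all cells the higher Hk3 value of the lonidamine library was thus no longer called when these precursor cells were left out.

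Within the neutrophil gate 20.5%, 0.949% and 1.91% of cells fell into the precursor cluster. Hk3 stood at 157 CPM in the precursor cells of the lonidamine library and at 99.6 and 95.9 CPM in the 6 and 4 such cells of papain and PBS. Cells of the gate outside that cluster had 52.6, 20.5 and 31.6 CPM, so the lonidamine library stayed highest, with lonidamine over papain 1.34 [0.58, 2.18] and lonidamine over PBS 0.70 [-0.16, 1.72]. The 7 precursor markers summed to 27499, 2210 and 3872 CPM in the whole gate and to 178, 61.5 and 147 CPM outside the cluster, where 1, 4 and 3 of the 7 were at 0. These sums had the same order of libraries as Hk3, and their part in the remaining difference was not tested. The median of all genes in the gate was -0.17 for lonidamine over papain, and 0.0085 with TMM scaling.

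A UMI of Hk3 was seen in 13%, 3.64% and 6.70% of gated neutrophils of the lonidamine, papain and PBS libraries at median depths of 1412, 1530.5 and 1957 UMIs. Thinned to 1000 UMIs, which left out 158, 89 and 2 cells, the shares were 6.87% [4.97, 9.20], 1.29% [0.520, 2.64] and 1.93% [0.529, 4.87]. Mature olfactory neurons gave 0, 3 and 8 Hk3 UMIs, and thinned shares of 0% [0, 0.270], 0% [0, 0.290] and 0.0748%. The neutrophil shares lay above that background, and the lonidamine interval lay above those of papain and PBS. Clec4d (r 0.93), Clec4a2 and Igsf6 were the genes most like Hk3.

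**Figure D3:**
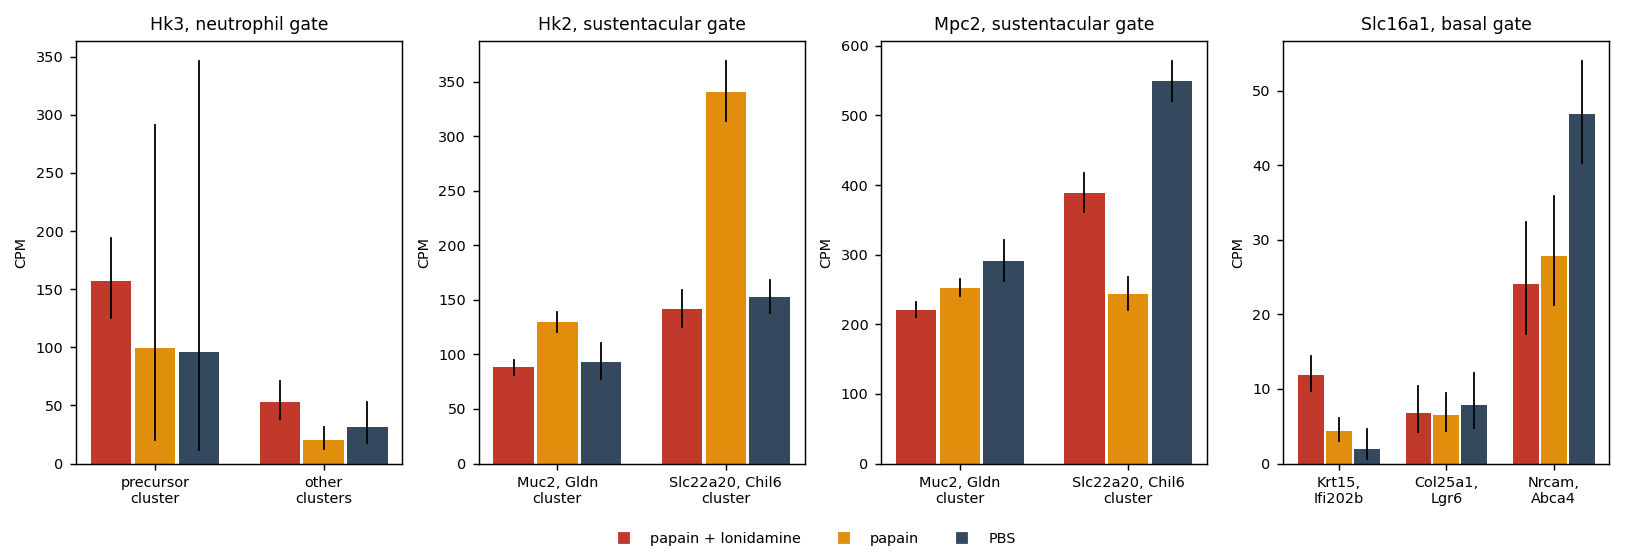
Levels in CPM (bars from 0, with 95% counting intervals) within single gates, split by cluster, for the lonidamine, papain and PBS libraries: Hk3 in neutrophils, Hk2 and Mpc2 in sustentacular cells, and Slc16a1 in basal epithelium. Hk3 stands at 157 CPM in the precursor cells of the lonidamine library and 52.6 CPM in its other neutrophils; Hk2 reaches 340 CPM in the Slc22a20, Chil6 cluster of the papain library, where Mpc2 stands at 243 CPM, the lowest of the 3 libraries in that cluster.

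Slc16a1 was a low transcript with scattered carriers. Over all cells it had 655, 524 and 530 UMIs in the lonidamine, papain and PBS libraries, or 7.71, 6.32 and 6.63 CPM. No ratio between libraries reached 2-fold. Lonidamine over papain was 0.29 [0.12, 0.45], papain over PBS -0.07 [-0.25, 0.11] and lonidamine over PBS 0.22 [0.05, 0.39]. With class shares held, the levels were 6.88, 6.02 and 7.75 CPM, and the lonidamine library then lay below PBS. Olfactory ensheathing glia, which wrap the axons of olfactory neurons, had 114 and 108 CPM in the lonidamine and papain libraries, with under 50 cells in PBS. The erythroid gate stood higher, at 203 CPM pooled, but from 55 cells, with 49 in the lonidamine library, 5 in papain and 1 in PBS. The neutrophil precursor cluster described above held 30, 2 and 3 of the Slc16a1 UMIs of these libraries. B cells had 54.0 CPM in the lonidamine library and 39.8 in papain, from 11 and 10 UMIs, and αβ T cells 22.3, 19.5 and 14.1 CPM in the lonidamine, papain and PBS libraries.

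Basal epithelium held 30.1% of Slc16a1 UMIs. There it had 170, 129 and 215 UMIs in the lonidamine, papain and PBS libraries, or 12.1, 8.67 and 23.2 CPM, and papain over PBS was -1.42 [-1.75, -1.10]. The PBS library was highest, but the basal gate was made of different clusters in each library. A cluster led by Nrcam and Abca4 held 15.8%, 18.7% and 50.6% of the gate, one led by Krt15 and Ifi202b 57.2%, 46.2% and 22.9%, and one led by Col25a1 and Lgr6 23.9%, 31.2% and 23.7%. Slc16a1 stood at 24.1, 27.8 and 46.8 CPM in the Nrcam, Abca4 cluster, and this cluster, with the highest Slc16a1 of the 3, was also a larger part of the PBS gate. Papain over PBS was -0.74 [-1.19, -0.32] within that cluster and -0.27 [-1.16, 0.67] in the Col25a1, Lgr6 cluster.

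In the Krt15, Ifi202b cluster Slc16a1 went the other way, with 11.9, 4.4 and 2 CPM from 103, 35 and 5 UMIs in the lonidamine, papain and PBS libraries. The lonidamine library was highest there: lonidamine over papain was 1.42 [0.87, 2.03] and papain over PBS 1.02 [-0.22, 2.85]. The call over the whole gate therefore did not hold within its clusters at 2-fold, and its direction turned in 1 of them. The clusters were split unevenly by library and made without batch correction. Ratios within clusters of the basal gate thus cannot tell different cells from a shift of the same cells. In mature olfactory neurons 2, 13 and 25 Slc16a1 UMIs were read, and lonidamine over PBS was -2.22 [-5.63, -0.50] from the 2 UMIs; cells with a UMI were 0.143%, 0.924% and 0.871% of that gate. Slc43a3 (r 0.72), Scd1 and Psat1 were most like Slc16a1 over the classes.

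Slc16a3 marked neutrophils and monocytes. It had 963, 563 and 833 UMIs over all cells in the lonidamine, papain and PBS libraries, or 11.3, 6.79 and 10.4 CPM. The papain library was lowest, with lonidamine over papain 0.74 [0.59, 0.89] and papain over PBS -0.62 [-0.77, -0.46], both short of 2-fold. By sex, lonidamine over papain was 0.97 [0.74, 1.21] in female cells and -0.07 [-0.63, 0.46] in male cells. Lonidamine over PBS was 0.19 [-0.03, 0.41] in female and -1.52 [-2.00, -1.09] in male cells. Papain over PBS was below 0 in both, at -0.78 and -1.44. The difference between the sexes was not tested. Neutrophils, 1.17% of all UMIs, held 37.6% of the Slc16a3 UMIs and stood at 360, 241 and 297 CPM. Monocytes stood at 92.9, 101 and 116 CPM and held 13.6%, and their 3 libraries lay within counting error. The first class below them with 50 cells in every library, the macrophage gate, had 15.3, 11.4 and 26.1 CPM.

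The precursor cluster carried Slc16a3 as well. It held 258 of 963 Slc16a3 UMIs in the lonidamine library (26.8%), 10 of 563 in papain (1.78%) and 7 of 833 in PBS (0.840%). Without it the levels over all cells were 8.42, 6.67 and 10.3 CPM, which left the lonidamine library below PBS. Over all cells of that cluster in the lonidamine library Slc16a3 stood at 209 CPM [184, 236], and in the 155 of them within the neutrophil gate at 368 CPM. Neutrophils of the gate outside the cluster had 355, 239 and 304 CPM in the lonidamine, papain and PBS libraries. A UMI was seen in 32.6%, 22.8% and 35.4% of gated neutrophils, and in 24.8%, 15.8% and 22.7% when thinned. Mature olfactory neurons gave 1.86%, 1.69% and 1.2% unthinned and 0.220%, 0.0787% and 0.112% thinned.

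Basal epithelial cells had a small amount of Slc16a3, 3.91, 3.23 and 11.6 CPM from 55, 48 and 107 UMIs in the lonidamine, papain and PBS libraries. Papain over PBS was -1.83 [-2.36, -1.34] and lonidamine over PBS -1.56 [-2.06, -1.08]. Within the Nrcam, Abca4 cluster, which held 91 of the 107 PBS molecules, the levels were 16.8, 14.8 and 22.7 CPM, and the ratios were -0.60 [-1.24, -0.01] and -0.41 [-1.08, 0.18]. Neither ratio reached 2-fold within that cluster. In macrophages papain over PBS was -1.16 [-2.03, -0.42] from 18 and 67 UMIs. Trem1 (r 0.90), F630028O10Rik and Mmp8 were most like Slc16a3, and the correlation of Slc16a3 with Hk3 over the same points was 0.79.

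Slc16a7 had most of its UMIs in basal epithelium. Over all cells it had 2631, 2219 and 2296 UMIs in the lonidamine, papain and PBS libraries, or 31.0, 26.8 and 28.7 CPM. No ratio was beyond 0.21 in size. With each class held at its mean share of the 3 libraries it stood at 29.0, 23.9 and 36.5 CPM, PBS highest. The near-equal totals thus did not hold at equal class shares. Basal epithelial cells held 51.7% of its UMIs from 15.4% of all UMIs, and stood at 102, 82.7 and 110 CPM. The papain library was lowest there: lonidamine over papain was 0.31 [0.20, 0.42] and papain over PBS -0.42 [-0.54, -0.30]. Ensheathing glia had 110 and 73.2 CPM in the lonidamine and papain libraries, above basal epithelium in the lonidamine library and below it in papain. The Alox12e Gp2 Clca1 epithelial gate, with 3 cells in PBS, had 76.2 and 48.9 CPM. In both the lonidamine library was above papain (0.59 [0.04, 1.14] and 0.64 [0.35, 0.93]).

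Unlike Slc16a1, Slc16a7 was concentrated in the Krt15, Ifi202b cluster of the basal gate. It stood there at 133, 114 and 241 CPM in the lonidamine, papain and PBS libraries, so papain over PBS was -1.08 [-1.23, -0.93], larger than over the whole gate. The Col25a1, Lgr6 cluster had 72.9, 65.3 and 116 CPM (-0.82 [-1.07, -0.58] for papain over PBS) and the Nrcam, Abca4 cluster 11.2, 17.2 and 24.9 CPM. PBS was highest in all 3. By sex, lonidamine over PBS in the basal gate was -0.59 in female cells and 0.60 in male cells, and the difference was not tested.

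Other classes had fewer Slc16a7 molecules and larger ratios. Ionocytes had 64, 90 and 362 UMIs, or 31.3, 33.2 and 71.7 CPM, in the lonidamine, papain and PBS libraries, with papain over PBS -1.10 [-1.46, -0.77] and lonidamine over PBS -1.19 [-1.60, -0.81]. Sustentacular cells had 5.73, 4.43 and 14.3 CPM, with papain over PBS -1.68 [-2.31, -1.09], but within the Muc2, Gldn and the Slc22a20, Chil6 clusters that ratio was 0.033 and -0.45, and with clusters in place of gates it was -0.26, each with an interval that held 0. Over the classes Slc16a7 was above 0 in 6 of 10 for papain over PBS and in 3 of 11 for lonidamine over PBS. In fibroblasts 39, 19 and 1 UMIs gave lonidamine over PBS 3.17 [1.18, 9.08] and papain over PBS 2.43 [0.32, 8.35], ratios that rest on 1 PBS molecule. Ciliated cells had 11 UMIs in the lonidamine library and 42 in PBS (-2.22 [-3.37, -1.28]), and the Bpifb6 Ces1a gland gate 25 and 21 (a ratio of 1.19). Fuom (r 0.72), Emp2 and Gstm1 were most like Slc16a7.

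Mpc1 and Mpc2 were read in most cells and were lower in both papain-treated libraries than in PBS. Mpc1 had 24744, 23550 and 30541 UMIs over all cells in the lonidamine, papain and PBS libraries, or 291, 284 and 382 CPM. Mpc2 had 19089, 19304 and 22314 UMIs, or 225, 233 and 279 CPM. For both, PBS was highest and the other libraries lay close together: papain over PBS was -0.43 [-0.45, -0.40] for Mpc1 and -0.26 [-0.29, -0.23] for Mpc2, while lonidamine over papain was 0.04 [0.01, 0.06] and -0.05 [-0.08, -0.02]. None of these reached 2-fold. With class shares held, papain over PBS was -0.33 and -0.38.

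The direction against PBS was spread over the classes. Mpc2 was below 0 for papain over PBS in 14 of 15 classes (interval below 0 in 12, median -0.49) and for lonidamine over PBS in 16 of 17 (interval below 0 in 14, median -0.58). Mpc1 was below 0 in 13 of 15 (interval below 0 in 8, median -0.22) and in 15 of 17 (interval below 0 in 10, median -0.35). With other scalings the Mpc2 counts ranged over 13 to 14 of 15 and 16 of 17, and the Mpc1 counts over 10 to 13 of 15 and 13 to 15 of 17. For lonidamine over papain Mpc1 was below 0 in 12 of 23 classes (16 with TMM), with 3 intervals below and 3 above 0. Mpc2 was below 0 in 16 of 23 (19 with TMM), with 2 intervals below and 2 above 0.

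By class, Mpc1 was high in ionocytes, with 410, 444 and 657 CPM in the lonidamine, papain and PBS libraries, and in mature olfactory neurons, with 419, 424 and 495 CPM. The olfactory neuron gates and the globose basal and nascent neuron gate together held 32.0% of all Mpc1 UMIs. Blood endothelial cells were among the lowest, with 128, 124 and 127 CPM and no difference between libraries beyond counting error. Mpc2 was high in ionocytes (263, 282 and 455 CPM) and basal epithelium (253, 294 and 336 CPM) and low in macrophages (78.4, 74.9 and 110 CPM). The Scgb1b27 Scgb2b27 Car6 gland gate, measured with 50 cells or more in PBS alone, had 696 CPM of Mpc1 and 745 CPM of Mpc2 there.

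Sustentacular cells had 318, 261 and 500 CPM of Mpc1 and 257, 250 and 441 CPM of Mpc2 in the lonidamine, papain and PBS libraries, PBS highest. In their Slc22a20, Chil6 cluster, where papain had the most Hk2, it had the least of both carrier subunits: Mpc1 stood at 557, 327 and 646 CPM and Mpc2 at 388, 243 and 549 CPM. Lonidamine over papain there was 0.77 [0.62, 0.92] for Mpc1 and 0.67 [0.50, 0.85] for Mpc2, and papain over PBS was -0.98 [-1.12, -0.84] and -1.17 [-1.33, -1.02]. In the Muc2, Gldn cluster Mpc1 stood at 252, 248 and 297 CPM and Mpc2 at 221, 252 and 291 CPM, a smaller range, with PBS highest again. This cluster pair was also chosen after its values were seen.

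In mature olfactory neurons the clusters nearly followed the split between PBS and the other libraries. They were made without batch correction, so different cells and a shift of the same cells cannot be told apart. Ratios within a cluster thus compare cells already sorted along that split. A cluster led by Slc1a2 and Dcdc2a held 83.4%, 82.1% and 6.50% of the gate in the lonidamine, papain and PBS libraries, and one led by S100a5 and Pcdh10 4.50%, 6.70% and 83.3%. Mpc1 over the gate was -0.22 [-0.27, -0.17] for papain over PBS and within the Slc1a2, Dcdc2a cluster -0.02 [-0.17, 0.13], with 421, 424 and 430 CPM. In the S100a5, Pcdh10 cluster, with 365, 458 and 494 CPM, papain over PBS was -0.11 [-0.30, 0.07] and lonidamine over PBS -0.43 [-0.68, -0.20]. In a smaller cluster led by Gap43 and Stk32a papain over PBS was -0.34 [-0.52, -0.15]. Over the classes Mpc1 and Mpc2 correlated with each other at r 0.80; the genes most like Mpc1 were Ndufc1 (r 0.85), Uqcrq and Mrpl14, and those most like Mpc2 were Anapc13 (r 0.81), Mpc1 itself and Lamtor2.

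Calls were also counted over all classes. For lonidamine over papain 2 of 124 gene-by-class values were called higher and 2 lower, against 2.33% and 1.77% of all such values. For papain over PBS 4 of 88 were higher and 6 lower, against 6.57% and 4.5%, and for lonidamine over PBS 6 of 97 were higher and 5 lower, against 8.32% and 5.47%. The shares of the 8 genes, 1.61% in each direction, 4.55% and 6.82%, and 6.19% and 5.15%, lay near that background. The comparisons share libraries, so their values stand side by side and are not independent. Of the 4 values called between lonidamine and papain, 3 were Hk2 and 1 was Hk3, and no transporter or carrier subunit was among them.

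**Figure D4:**
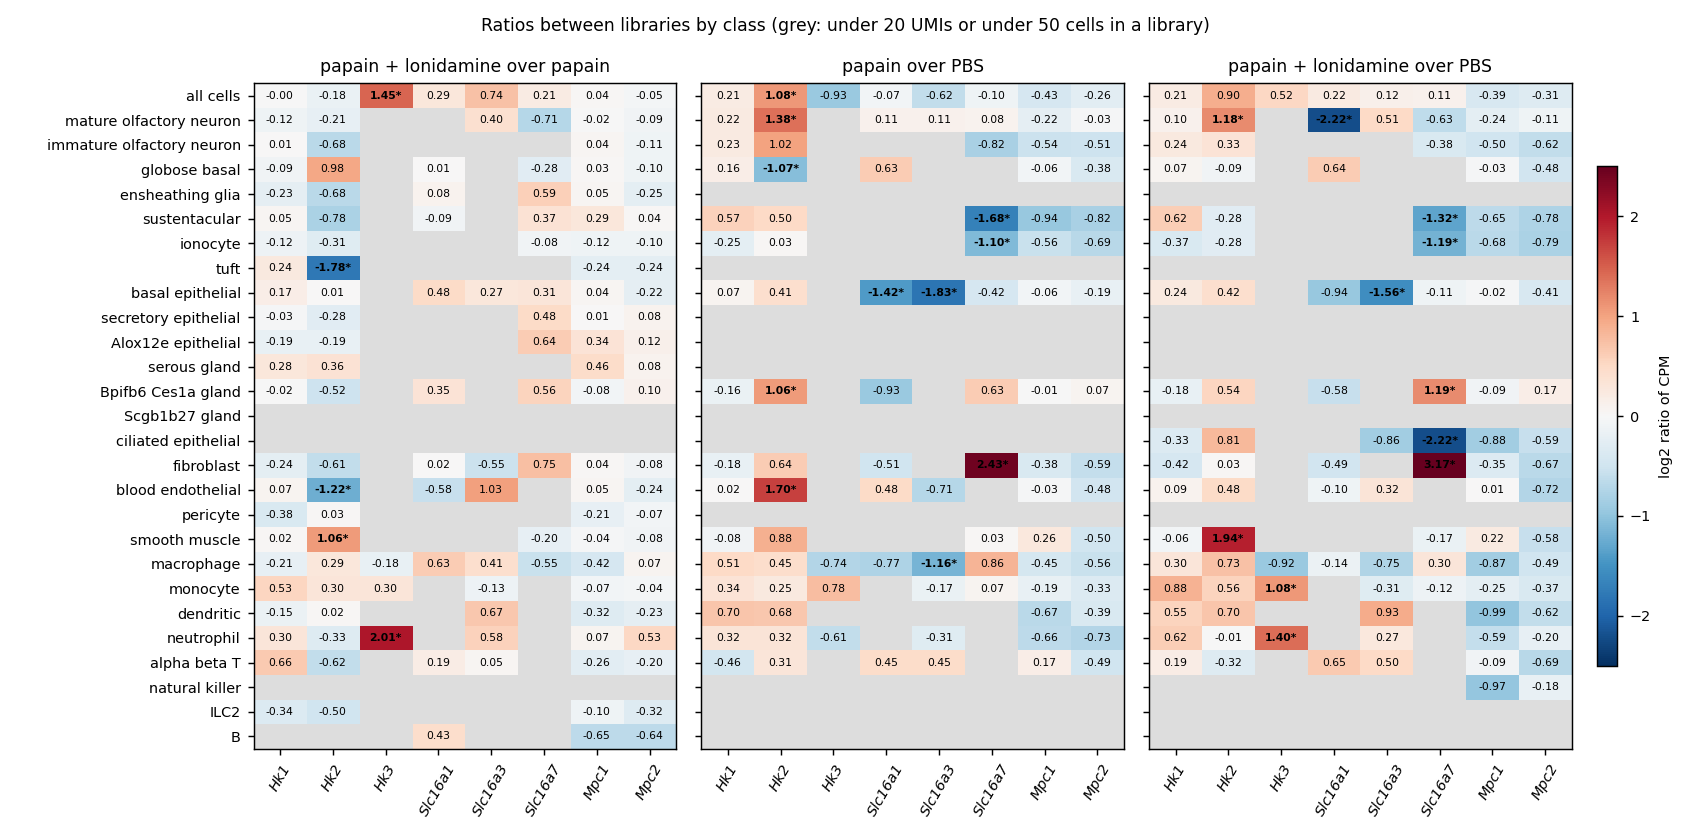
Log2 ratios of CPM for the 8 genes (columns) in all cells and in each gated class (rows) for lonidamine over papain, papain over PBS and lonidamine over PBS; grey marks under 20 UMIs or under 50 cells, and bold values with a star are at least 2-fold with an interval excluding 0. Hk3 is 2.01 in neutrophils for lonidamine over papain, and the Mpc2 column is below 0 in 14 of 15 classes for papain over PBS.

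Genes of the same pathways were then read from lists. Over all cells none of the listed partners, related carriers, glucose transporters, glycolytic enzymes, dehydrogenases, complex II subunits, voltage-dependent channels or hypoxia genes was called for lonidamine over papain, beside 2.71% of genes higher and 1.88% lower. For papain over PBS the background was 9.83% higher and 5.62% lower, and for lonidamine over PBS 12.1% and 7.29%. The median over all genes was 0.03, -0.02 and 0.02 for the 3 comparisons.

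Glucose transporters bring in the substrate of hexokinase. For papain over PBS 4 of 10 were called higher and none lower: the sodium-coupled Slc5a1 had 27.6 CPM in papain, against 4.44 in PBS (2.64 [2.48, 2.80]), and Slc2a10, Slc2a3 and Slc2a9 were at 1.72, 1.5 and 1.38. These 4 genes were also those called for lonidamine over PBS, and none was lower. Slc2a1, the widespread basal transporter, stood at 84.7, 100 and 84.6 CPM in the lonidamine, papain and PBS libraries, with papain over PBS at 0.24 and lonidamine over papain at -0.24. Of 2 other hexokinase family genes Hkdc1 was called lower for papain over PBS from 6 and 17 UMIs (-1.48) and for lonidamine over PBS from 4 and 17 (-2.05).

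The glycolytic enzymes below hexokinase carry its product on to pyruvate. Of 13 looked at, none was higher for papain over PBS and 2 were lower, Eno1, the enolase (91.8 CPM in papain, 250 in PBS, -1.44), and Pgam1, the phosphoglycerate mutase (-1.04); the list's median was -0.72. For lonidamine over PBS Aldoa, Gapdh, Pgam1 and Eno1 were lower, at -1.15, -1.04, -1.18 and -1.66, with a median of -0.84. For lonidamine over papain the median was -0.10. Of the lactate dehydrogenase subunits Ldhb stood at 210, 280 and 860 CPM in the lonidamine, papain and PBS libraries (papain over PBS -1.62, lonidamine over PBS -2.04), and Ldha at 254, 278 and 328 CPM, short of 2-fold.

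Among 11 other carriers of the family Slc16a4 (1.29) and Slc16a12 (1.59) were higher for papain over PBS and Slc16a14 lower (-1.35, from 7 and 18 UMIs). For lonidamine over PBS the same genes were called and so was Slc5a8, a sodium-coupled monocarboxylate transporter, at 108 CPM in the lonidamine library and 46.4 in PBS. The chaperones that carry the MCT proteins to the plasma membrane were not called over all cells. Bsg stood at 567, 647 and 899 CPM in the lonidamine, papain and PBS libraries and Emb at 361, 343 and 348 CPM. Within gates, Bsg was called lower for lonidamine over PBS in basal epithelium (-1.13) and blood endothelium (-1.54). For papain over PBS it was not called in these gates (-0.82 and -0.95). Over all cells none of 11 genes of pyruvate dehydrogenase and its kinases was called in any of the comparisons. The same held for 8 of complex II, another known target of lonidamine, and for 3 outer membrane channels that bind hexokinase. Complex II had a median of -0.07, -0.43 and -0.49 for lonidamine over papain, papain over PBS and lonidamine over PBS. Of 9 hypoxia response genes none was called for papain over PBS and Ankrd37 alone, at -1.34, for lonidamine over PBS.

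Mature olfactory neurons, the class with most cells carrying the 8 genes (5018 of 5454, 92.0%), were looked at on their own. There the background for lonidamine over papain was 1.91% higher and 3.82% lower, for papain over PBS 10.7% and 3.49%, and for lonidamine over PBS 10.1% and 5.17%, with medians of all genes of -0.01, 0.20 and 0.19. Of the lists, lonidamine over papain called only Vegfa, lower from 20 and 45 UMIs (-1.04 [-1.90, -0.27]). For papain over PBS 1 of 13 glycolytic enzymes (Aldoc, -1.99) and 1 of 2 lactate dehydrogenases (Ldhb, -1.23) were lower, as were 2 of 7 hypoxia genes (Adm, -3.48, and Ddit4, -1.07) and Slc2a4 of 4 glucose transporters (-1.90). Slc16a6 (1.03) and Slc5a8 (1.29) were the 2 of 5 carriers called higher. For lonidamine over PBS Aldoc (-2.54), Eno1 (-1.06), Ldha (-1.79), Ldhb (-1.60), Adm (-3.23), Ddit4 (-1.48) and Slc2a4 (-2.05) were lower and Slc5a8 (1.14) higher. The different clusters that made up this gate in PBS and in the other libraries stand beside these values too.

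**Figure D5:**
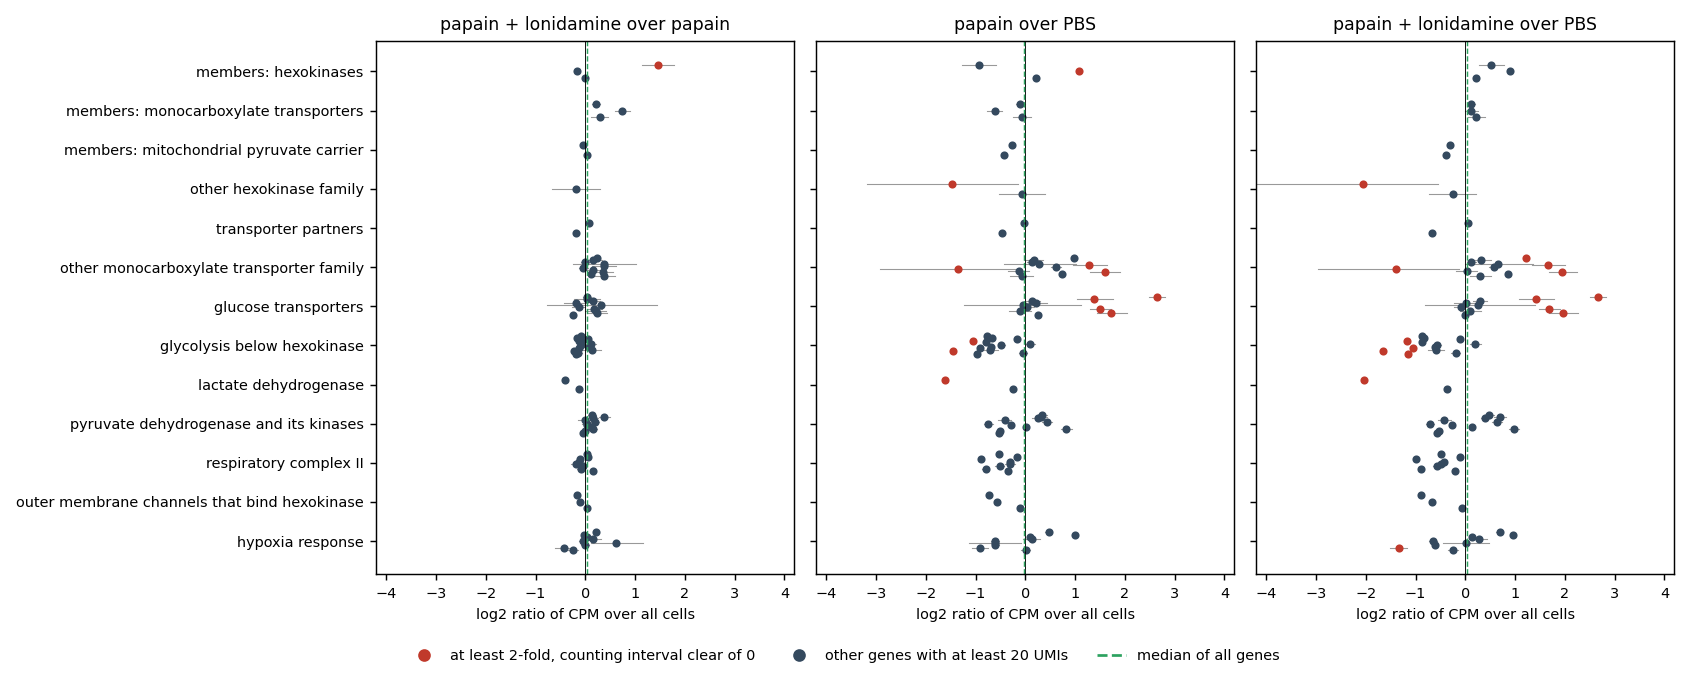
Log2 ratio of CPM over all cells for each gene of the listed groups (1 point per gene with at least 20 UMIs) in the comparisons lonidamine over papain, papain over PBS and lonidamine over PBS; the green dashed line is the median of all genes. No point is past 2-fold for lonidamine over papain apart from Hk3 at 1.45, and glycolytic enzymes have a median of -0.72 for papain over PBS.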

How the data were processed

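Single-cell RNA was measured in 3 pooled nasal mucosa libraries, which were grouped by their treatment label. The deposited values are raw UMI counts per gene and barcode, not normalized, per the file headers. The files name Cell Ranger 7.1.0, per the file headers, whereas the submitters' processing notes give Cell Ranger 2.1.1 and GRCm39. Seurat is named in the labels' protocols, and no cell annotation of the authors was used.

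Deposited totals were 89164040, 86197965 and 82399462 UMIs from 12598, 11071 and 9740 barcodes in the lonidamine, papain and PBS libraries. Barcodes below 500 UMIs or 200 genes, or above 20% mitochondrial UMIs, were dropped, which left 12149, 10712 and 9515, and Scrublet in scanpy 1.11.5 marked 262 (2.16%), 188 (1.76%) and 137 (1.44%) as doublets, which were removed. A cell entered a class when it had at least 3 of that class's markers, a marker score of at least 0.15 scaled to the 99th percentile, and a score at least 1.25 times the next; these limits were set after seeing the data. Of the listed markers 3 were absent from the gene list. Leiden clusters (leidenalg 0.10.2, 2000 variable genes, 40 components, 20 neighbours, resolution 1, no batch correction) served to split gates and as an alternative; pairs of genes after the word cluster are its leading genes.

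A gene's UMIs in each class of a library were added up and scaled to that class's total (CPM). Log2 ratios had 0.5 counts added, with exact conditional binomial 95% intervals; sums have exact Poisson and shares exact binomial (Clopper-Pearson) intervals. Where a count was 0 the floor is 3 counts. Intervals and floors cover counting error only. Classes needed 50 cells in both libraries. Detection shares were compared after thinning each cell to 1000 UMIs. Scripts ran in Python 3.11.15 with numpy 2.4.6, scipy 1.17.1 and pandas 2.3.3; TMM factors came from edgeR 4.0.16 in R 4.3.3, used for scaling alone. The ratio and call rule were checked on simulated counts.

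Named genes were all 8 targets; of each pathway list, up to 4 called genes with the largest ratios, over all cells and in the class with most cells carrying the targets; and for each target the 3 genes of highest correlation of log2(CPM + 10) among genes with at least 1000 UMIs, of which 1 is not reported here. Slc2a1, Bsg, Emb, the Ldha and Ldhb levels beside each other and the levels within clusters were added after their values were seen. The 8 genes, markers and lists were chosen with earlier results of these data known. Alternatives were doublets kept, stricter barcode filters, other totals and scalings, other UMI minimums, 5 counts added, clusters in place of gates, a stricter gate, single sexes, and class shares held.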

Additional observations from a re-analysis of the deposited data

Results flagged for a closer look

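Cells could be read as female (Xist without Y-linked UMIs) or male, and in these values female and male cells moved in opposite directions with counting intervals on opposite sides of 0. Each sex of each group is 1 pool, so the difference between the sexes was not tested. Over all cells Slc16a7 was 0.29 in female and -0.21 in male cells for lonidamine over papain, and -0.49 in female and 0.28 in male cells for papain over PBS. For lonidamine over PBS Hk3 was 0.66 in female and -1.19 in male cells over all cells, and Slc16a1 was 0.65 in female and -0.59 in male cells.

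Within gates, Hk2 in sustentacular cells was 1.01 in female and -0.40 in male cells for papain over PBS. In mature olfactory neurons Slc16a7 was 0.84 in female and -1.78 in male cells for papain over PBS, and Mpc2 was -0.11 in female and 0.21 in male cells. In basal epithelial cells Slc16a7 was -0.59 in female and 0.60 in male cells for lonidamine over PBS, and Mpc1 was -0.12 in female and 0.29 in male cells. All are log2 ratios.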

How the results depend on the processing

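The count of values called between the lonidamine and papain libraries was small and moved easily. The 2 called lower became 1 with doublet calls kept or the stricter marker gate, 4 with at least 5 UMIs, and 0 with at least 100 UMIs, with clusters in place of gates or in male cells only. The 2 called higher became 1 with 5 counts added or in male cells only, and 5 in female cells only. For papain over PBS the 4 called higher became 1 with at least 100 UMIs or in male cells only, and 8 with clusters in place of gates. For lonidamine over PBS the 6 called higher became 1 with at least 100 UMIs, 10 with clusters and 0 in male cells only, and the 5 called lower became 3 with at least 100 UMIs or the stricter gate, 8 with clusters and 2 in male cells only. Fewer cells and a higher UMI minimum leave fewer values to call; for the other settings the cause was not tested.

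Of the log2 ratios over all cells, 65 of 312 alternative values of 24 results left the counting interval. A change of sign was counted only for called values, here Hk2 for papain over PBS and Hk3 for lonidamine over papain, and neither changed. Uncalled values could change sign without being counted: Hk3 for lonidamine over PBS, higher in the lonidamine library over all cells, was -1.19 in male cells. Of 254 alternative values of the 25 called in classes, 15 left the interval and 1 turned: Hk2 in mature olfactory neurons for lonidamine over PBS was -0.72 in male cells, at the background level of that gene. The alternatives chosen after seeing the data, clusters within gates and leaving out the precursor cluster, turned Slc16a1 in basal epithelium (1.02 in the Krt15, Ifi202b cluster) and Slc16a7 in sustentacular cells (0.033 in the Muc2, Gldn cluster), both for papain over PBS. Leaving out the precursor cluster ended the Hk3 call over all cells (0.35). All 24 shares of cells with a UMI over all cells were larger without thinning, and 22 of 24 moved at 2000 UMIs.

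No paired analysis was possible because each group is 1 library. For the same reason no setting leaves out a replicate. Depth limits Hk3 most, which reached 20 UMIs in 3 classes in each comparison.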
